A study of Mus musculus with 18 samples.

Results

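The response of mouse ovarian follicles to 2 doses of anti-Müllerian hormone (AMH) was compared after 24 h of culture: 3 arrays of follicles given AMH 200 ng/mL against 3 arrays of follicles given AMH 50 ng/mL, chosen by title, 6 of the 18 arrays of the series. All groups were preantral to small antral follicles of female C57BL/6Ntac mice of 6 to 8 weeks, and every culture, controls included, also contained FSH at 80 IU/L and LH at 10 IU/L. Follicles of 7 mice were pooled for each experiment and divided over AMH 200 ng/mL, AMH 50 ng/mL and a control without AMH (called vehicle here), so that equal replicate numbers at 1 time share a pool, and a difference within a pool compares follicles of the same mice. The 24 h cultures came from 3 pools. The 12 h cultures came from 3 other pools and were used only to set the same dose difference beside them. RNA was taken from whole follicles, not from sorted cells, and each array represents the amplified product of 5 ng of it.

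AMH is made by granulosa cells of growing follicles and belongs, like the bone morphogenetic proteins (BMPs), to the TGF-β superfamily. It binds the receptor AMHR2, which pairs with a type I receptor shared with BMPs and passes the signal to SMAD1, SMAD5 and SMAD9 (SMAD1/5/9). In the ovary it is known for restraining the recruitment of primordial follicles and for lowering the sensitivity of growing follicles to FSH.

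Expression was read as the signal intensity of Affymetrix probe sets, scaled by the authors to a 2% trimmed mean of 150 on each array, and differences are given as log2(signal + 16) at AMH 200 ng/mL minus that at AMH 50 ng/mL. The number added makes the difference of dim probe sets smaller than the ratio of their signals. Pairwise correlations of the 6 arrays across probe sets lay between 0.954 and 0.981, their median signals between 23.9 and 36.5 and their mean hybridisation controls between 1441 and 2661. Poly-A spike controls ranged from 329 to 1264. The AMH 50 ng/mL array of pool 1 held the highest value of both kinds of control. The next highest were 1782 for hybridisation and 471 for poly-A, on arrays of pool 3. How far this array of pool 1 enters the differences of that pool was not tested. The granulosa cell markers Inha and Amhr2 were bright, at 1807 to 2814 and 1190.5 to 1606 on the 6 arrays. Amh and Nr0b1 of the same list did not pass the filter on dim probe sets (means of 10.1 and 14.7 with AMH 200 ng/mL, against 18.8 and 9.37 with AMH 50 ng/mL), and neither did any red blood cell marker. Arrays limit the precision by their number, 3 for each dose.

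No probe set passed the test of dose. Among 22518 probe sets tested with limma, with the pool as a block and the 3 vehicle arrays of 24 h in the fit, 0 (0%) had an adjusted p under 0.05, and the smallest adjusted p was 0.109, shared by 8 probe sets. At an unadjusted p under 0.05 there were 1990 probe sets (8.84%), of which 1289 (5.72%) were higher and 701 (3.11%) lower with AMH 200 ng/mL. This split depended on scaling, as 64.8% of them were higher with the deposited values, 54.9% after quantile normalization and 32.8% after centring each array on its median. Median centring called 24 probe sets (5 higher and 19 lower), among them those of Cdo1, Ston2, D630039A03Rik, Ndrg1, Egln3, Cela3b, Stard5, Cited1, Tgfbi, Mapk13 and Akr1c18, which are described by their deposited values. Array weights called 336. Leaving out pool 2 gave 32 calls, leaving out pool 3 gave 1 and leaving out pool 1 gave 0. The pools were weakly alike in their differences: across probe sets, the differences of pools 1 and 2 correlated at 0.01, those of pools 1 and 3 at 0.22 and those of pools 2 and 3 at 0.11. All genes named from here on are therefore described by their values, and none of them passed the test over all probe sets with the deposited values and all 3 pools, unweighted.

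**Figure D1:**
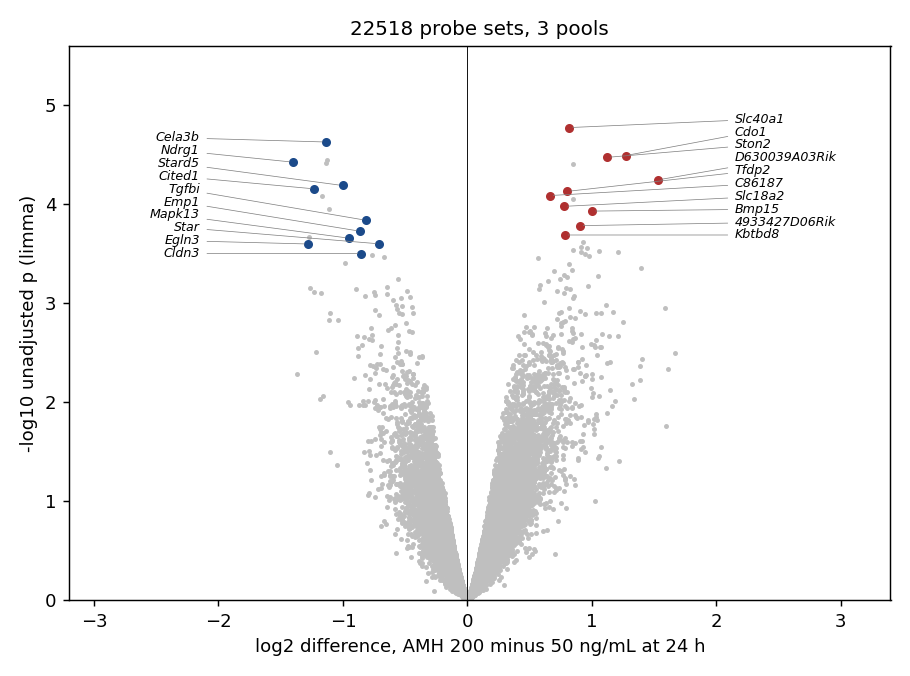
Each point is 1 of 22518 probe sets, with the log2 difference (AMH 200 minus 50 ng/mL at 24 h) on the x axis and -log10 of the unadjusted limma p on the y axis. Coloured points are the 10 higher and 10 lower genes with the smallest unadjusted p among those with the same sign in 3 of 3 pools, which had adjusted p-values between 0.109 and 0.201.

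The genes that ranked first as higher with AMH 200 ng/mL included transporters, an oocyte growth factor and a cysteine-degrading enzyme. They were the 10 with the smallest unadjusted p among genes that were higher in 3 of 3 pools, a condition met by 17.5% of all probe sets. Slc40a1, the gene of the iron exporter ferroportin, had signals of 744, 732 and 941 in pools 1 to 3 with AMH 200 ng/mL, against 375, 407 and 583 with AMH 50 ng/mL. The 2 doses did not overlap (as in 5 of these 10 genes, and in 5.85% of all probe sets in this direction), and the log2 difference was 0.82 (SE 0.11, limma adjusted p = 0.109). A second probe set of the gene gave 0.85. Cdo1, which encodes cysteine dioxygenase, read 94.8, 318 and 168 with AMH 200 ng/mL, against 26.6, 175 and 43.3 with AMH 50 ng/mL, a difference of 1.27 (SE 0.18). Pool 2 was the highest at both doses, so that the doses overlapped although each pool showed the same direction.

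Slc18a2, the vesicular monoamine transporter gene, stood at 574, 571 and 1109.9 with AMH 200 ng/mL, against 367, 377 and 498 with AMH 50 ng/mL. Its difference was 0.78 (SE 0.13, limma adjusted p = 0.147), and within each pool both doses lay below the vehicle array, which read 864, 900.3 and 1259 in pools 1 to 3. Of the 10 leading higher genes, the mean lay above vehicle in 8 with AMH 200 ng/mL and in 0 with AMH 50 ng/mL. For Slc40a1 the mean log2 differences from vehicle were 0.07 with AMH 200 ng/mL and -0.75 with AMH 50 ng/mL, and for Cdo1 0.16 and -1.11. These differences share arrays with the comparison of the doses. Bmp15, a growth factor that oocytes secrete to act on granulosa cells, read 185, 347 and 233 with AMH 200 ng/mL and 85.6, 215 and 80.4 with AMH 50 ng/mL. The difference was 1.00 (SE 0.16), and 3 probe sets of this gene gave 0.74 to 1.00. The endocytic adaptor gene Ston2 differed by 1.12 (SE 0.16), with 122, 205 and 181 with AMH 200 ng/mL and 40.4, 94.5 and 77.9 with AMH 50 ng/mL, which did not overlap. A second, dimmer probe set of Ston2 gave only 0.32 (SE 0.16). Tfdp2, a dimerisation partner of E2F transcription factors, differed by 0.80 (SE 0.12) and Kbtbd8, a substrate adaptor of a ubiquitin ligase, by 0.78 (SE 0.14). The other 3 are predicted or little described genes: D630039A03Rik differed by 1.53 (SE 0.23), 4933427D06Rik by 0.90 (SE 0.15) and C86187 by 0.66 (SE 0.10). Cdo1, Bmp15, Kbtbd8, 4933427D06Rik and C86187 were brightest in pool 2 at both doses and in vehicle. The summed signal of the oocyte markers, described below, had the same order, with pool 2 highest in each group. How far oocyte content enters the differences of these genes was not tested.

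The genes that ranked first as lower with AMH 200 ng/mL included a hypoxia-responsive gene, carriers of cholesterol and epithelial membrane proteins. They were taken from genes lower in 3 of 3 pools, as 11.4% of all probe sets were. Ndrg1, a stress gene that low oxygen induces, read 254, 343 and 437 with AMH 200 ng/mL, against 1014, 1050.5 and 716 with AMH 50 ng/mL. The doses did not overlap, as in 8 of these 10 genes and in 4.12% of all probe sets in this direction, and the difference of -1.40 (SE 0.20, adjusted p = 0.109) was repeated by all 5 probe sets of the gene, at -0.98 to -1.40. Egln3, a prolyl hydroxylase that marks HIF proteins for destruction and is itself a HIF target, read 26.8, 48.1 and 78.4 with AMH 200 ng/mL and 65.0, 250.4 and 156 with AMH 50 ng/mL. It differed by -1.28 (SE 0.23), with the largest gap in pool 2. The vehicle arrays lay between the doses in each pool for Ndrg1, at 450.5, 680.2 and 646, and likewise for Egln3, at 42.9, 100.2 and 93.1.

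Star, which carries cholesterol into mitochondria for steroid synthesis, read 739, 671 and 735 with AMH 200 ng/mL, against 1356, 1081 and 1112 with AMH 50 ng/mL. No array of one dose reached the other, the difference was -0.71 (SE 0.13, adjusted p = 0.201), and the 3 probe sets of the gene gave -0.55 to -0.71. Stard5, a relative of Star that binds lipids in the cytosol, differed by -1.28, -1.22 and -0.52 in the 3 pools (SE of their mean 0.15), with 309.9, 148 and 196 with AMH 200 ng/mL and 774, 365 and 287 with AMH 50 ng/mL. Cela3b, an elastase gene known from the pancreas, differed by -1.14 (SE 0.15), and its 4 probe sets by -1.11 to -1.27. Its signals were 416, 410.4 and 221 with AMH 200 ng/mL and 855, 875 and 582 with AMH 50 ng/mL. The transcriptional coregulator gene Cited1 differed by -1.23 (SE 0.19), the matrix protein gene Tgfbi by -0.82 (SE 0.14), the p38 kinase gene Mapk13 by -0.95 (SE 0.17), the membrane protein gene Emp1 by -0.86 (SE 0.15) and the tight junction gene Cldn3 by -0.85 (SE 0.16). The 4 probe sets of Tgfbi gave -0.42 to -0.82, with -0.44 by the brightest, and the 3 of Cldn3 gave -0.57 to -0.85. Along the doses, Mapk13 averaged 134 ± 1.14 in vehicle, 239 ± 60.6 with AMH 50 ng/mL and 115 ± 27.8 with AMH 200 ng/mL (SD, n = 3 each), and Tgfbi averaged 215 ± 6.29, 353 ± 21.4 and 197 ± 47.8. Each difference from vehicle shares arrays with the comparison of the doses, so it is no separate support for it.

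**Figure D2:**
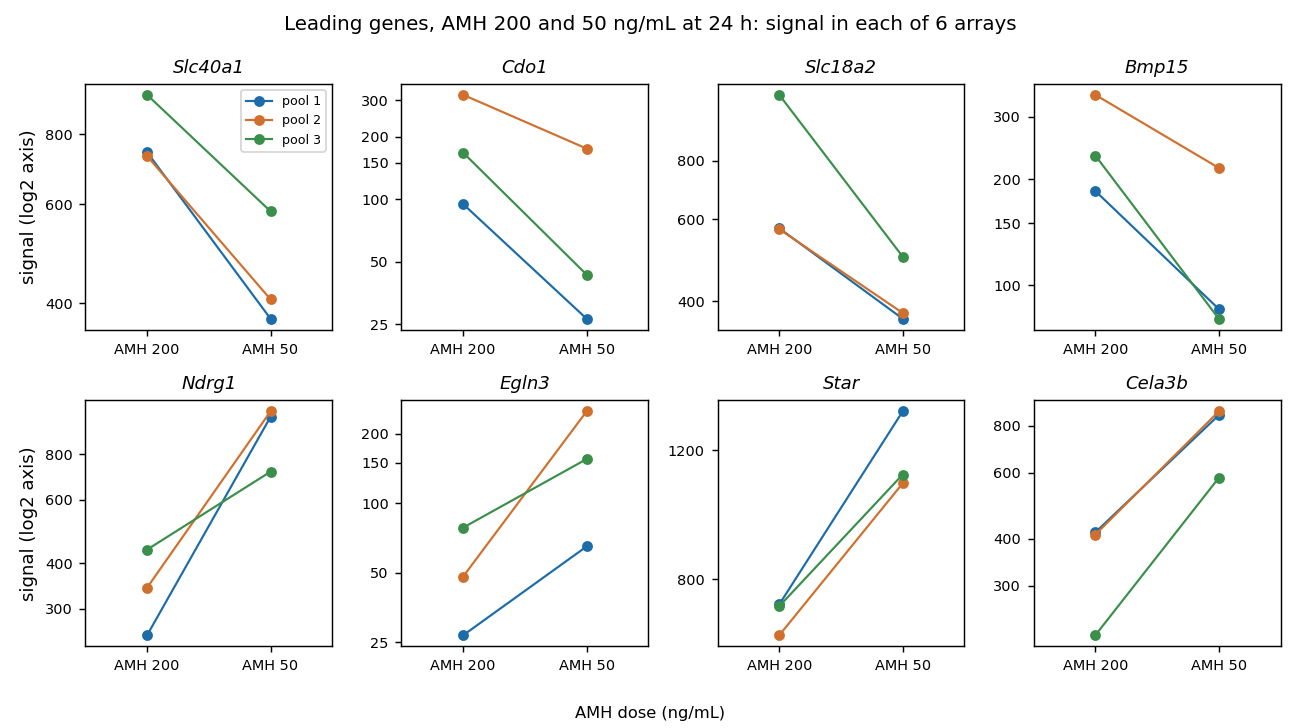
Signal of 8 genes (log2 axis) on each of the 6 arrays, with AMH 200 ng/mL left of AMH 50 ng/mL and a line joining the 2 arrays of a pool. The 4 genes of the upper row are higher and the 4 of the lower row lower with AMH 200 ng/mL in every pool, and pool 2 carries the highest Cdo1 and Bmp15 signals at both doses.

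Oocyte markers were higher with AMH 200 ng/mL as a group, and pool 3 showed it most. Of 22 measured members, 21 had a mean difference above 0 and 16 were higher in 3 of 3 pools, against 51.7% and 15.3% of all 11170 genes measured, and 17 of the 22 had an unadjusted p under 0.05 in the higher direction, against 5.55% of genes. The median log2 difference was 0.89, against 0.01 over all genes, with pool medians of 0.30, 0.51 and 1.55, and it was 0.42 without pool 3. For none of the 22 were the 2 doses free of overlap (5.13% of all genes were, in this direction), and the pools differed widely in level. Zp3, a zona pellucida protein that binds sperm, read 181, 1061 and 654 with AMH 200 ng/mL, against 88.8, 675 and 52.8 with AMH 50 ng/mL. Its differences of 0.91, 0.64 and 3.28 gave a mean of 1.61 (SE 0.44, adjusted p = 0.405). The mean was 0.78 without pool 3. The zona gene Zp2 had pool differences of 0.60, 0.48 and 3.71, with a mean of 1.60 (SE 0.56) that was 0.54 without pool 3. Zp1, also of the zona, had pool differences of 0.21, 0.92 and 2.00, with a mean of 1.04 (SE 0.27) that was 0.57 without pool 3.

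Gdf9, an oocyte factor that acts on the surrounding granulosa cells together with BMP15, read 149, 621 and 395 with AMH 200 ng/mL and 71.5, 430.0 and 65.8 with AMH 50 ng/mL, a difference of 1.25 (SE 0.29) that was 0.71 without pool 3. The oocyte transcription factor gene Nobox differed by 1.00 (SE 0.29), H1f8, a linker histone of oocytes, by 1.00 (SE 0.28, and 0.54 without pool 3), Btg4, an adaptor for the clearance of maternal mRNA, by 0.91 (SE 0.17), and Tcl1, a cofactor of the kinase AKT, by 0.72 (SE 0.16). The summed signal of the 22 markers was 3697, 12168 and 8426 with AMH 200 ng/mL, against 3539, 8622 and 2806 with AMH 50 ng/mL. The vehicle arrays summed to 4024, 13718 and 7015, so the AMH 50 ng/mL array of pool 3 held the lowest of the 9 sums and the doses were almost level in pool 1. In whole follicles, fewer oocytes and less RNA per oocyte cannot be told apart, and the part of unequal oocyte numbers between cultures was not tested. In the oocyte list 15 members had a promoter sequence in the RefSeq table (build GRCm38.p6), and those of Zp3 (chr5:135979855-135980104, plus strand) and Btg4 (chr9:51115751-51116000, plus strand) are shown as the 250 bases before the start site, because both genes were higher in each pool and both carry E-boxes, the CANNTG motif bound by oocyte bHLH factors such as FIGLA in mouse. Capitals mark CANNTG.
Zp3: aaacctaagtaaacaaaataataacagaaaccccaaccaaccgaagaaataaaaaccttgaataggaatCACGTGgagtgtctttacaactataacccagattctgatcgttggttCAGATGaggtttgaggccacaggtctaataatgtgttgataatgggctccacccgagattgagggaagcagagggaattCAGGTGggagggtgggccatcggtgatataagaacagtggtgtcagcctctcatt
Btg4: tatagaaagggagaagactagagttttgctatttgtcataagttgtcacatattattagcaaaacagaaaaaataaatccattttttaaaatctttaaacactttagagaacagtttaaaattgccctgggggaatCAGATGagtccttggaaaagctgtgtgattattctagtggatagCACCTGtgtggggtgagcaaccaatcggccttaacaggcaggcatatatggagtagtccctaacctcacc
Zp3 held 3 such motifs and Btg4 held 2, the nearest 49 and 64 bases before the start. A CANNTG, which reads the same on both strands, occurred in 12 of the 15 members (80.0%), against 69.3% of the 27025 genes with such a window, so that it is common in any promoter of this length. Figla itself and Sohlh1, both of the oocyte list, did not pass the filter on dim probe sets. Figla averaged 19.1 with AMH 200 ng/mL and 16.6 with AMH 50 ng/mL, and Sohlh1 17.9 and 19.9.

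**Figure D3:**
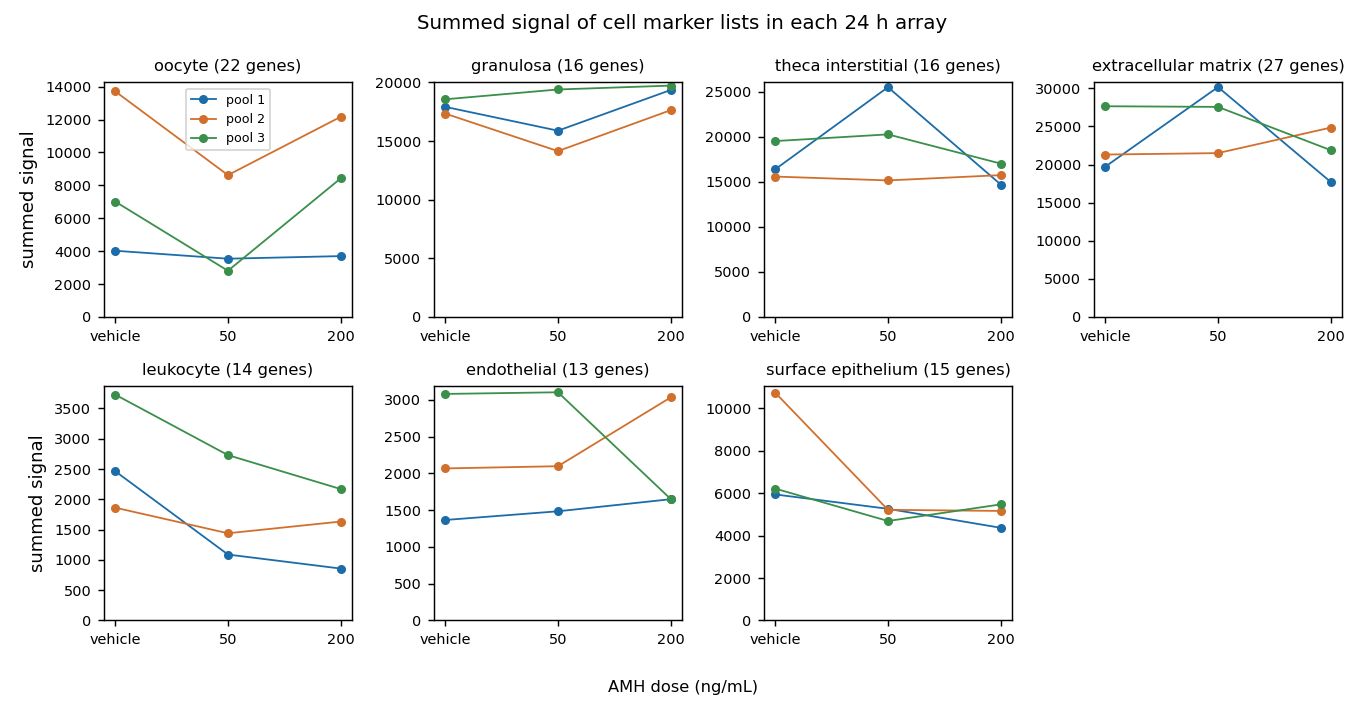
Summed signal of the measured markers of 7 cell types or structures (y axis, linear, from 0) on each of the 9 arrays of 24 h, by AMH dose in ng/mL on the x axis, with a line for each pool. Oocyte sums differ by pool more than by dose, and theca and matrix sums with AMH 50 ng/mL are highest in pool 1.

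Granulosa cell markers were mostly higher with AMH 200 ng/mL, chiefly in pools 1 and 2. Of 16 measured, 13 had a mean difference above 0, 6 were higher in 3 of 3 pools and 4 had an unadjusted p under 0.05 in that direction, against 51.7%, 15.3% and 5.55% of all genes. The median was 0.25, with pool medians of 0.53, 0.42 and 0.06. Inhba, the activin and inhibin subunit βA, read 1477, 939 and 1667 with AMH 200 ng/mL, against 223, 517 and 1586 with AMH 50 ng/mL, so its difference of 1.19 (SE 0.37, adjusted p = 0.429) came from pools 1 and 2. Inhbb, the βB subunit, had differences of 2.22, 1.11 and -0.73 in the 3 pools, and Fst, which encodes the activin-binding protein follistatin, of 1.75, 0.91 and -0.46. The estrogen receptor gene Esr2 read 199, 194 and 113 with AMH 200 ng/mL and 41.3, 97.9 and 94.9 with AMH 50 ng/mL, which did not overlap (difference 1.00, SE 0.31). Without pool 1 the difference was 0.46 for Inhba and 0.55 for Esr2. Hsd17b1, which forms estradiol, had pool differences of 0.92, 0.42 and -0.02, with a mean of 0.44 (SE 0.16) that was 0.20 without pool 1. Foxl2, a transcription factor of granulosa cell identity, had pool differences of 0.80, -0.01 and 0.04, with a mean of 0.28 (SE 0.16) that was 0.019 without pool 1. Differences near 0 were measured for the inhibin α subunit gene Inha (-0.13, 95% interval -0.48 to 0.23), the FSH receptor gene Fshr (-0.14, -0.79 to 0.52) and Kitl, the KIT ligand gene (0.16, -0.19 to 0.50). The summed granulosa signal was 17638 to 19733 with AMH 200 ng/mL and 14144 to 19402 with AMH 50 ng/mL.

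Components of AMH and BMP signalling were higher in 14 of 20 measured members and lower in 6, with 11 higher in 3 of 3 pools, 5 with an unadjusted p under 0.05 in the higher direction and none in the lower. Over all genes, 15.3% were higher in 3 of 3 pools, and 5.55% and 3.45% had such a p in the higher and the lower direction. The list median was 0.12, with pool medians of 0.17, 0.11 and 0.08, and it was 0.020 with median centring and 0.059 with array weights. Of the 5, Gdf9 and Bmp15 are the oocyte ligands already described. Among the other ligands, Bmp6 read 310.3, 273 and 446 with AMH 200 ng/mL and 142, 273 and 199.6 with AMH 50 ng/mL, a difference of 0.71 (SE 0.21) that was 0.00 in pool 2. Of the receptors, the type I receptor gene Bmpr1b differed by 0.60 (SE 0.21), with pool differences of 1.33, 0.34 and 0.11, and by 0.23 without pool 1. Amhr2, the specific receptor of AMH, differed by 0.19 (SE 0.12) by its brightest probe set, and its other probe sets gave 0.20 and 0.59. The type I receptor genes that AMH can use differed by 0.11 (SE 0.11) for Bmpr1a and by -0.22 (SE 0.13) for Acvr1, by their brightest probe sets. Their other probe sets gave -0.20 to 0.35 for Bmpr1a, and -0.16 and -0.42 for Acvr1. Each Acvr1 probe set was lower in every pool.

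Of the signal-carrying SMADs, Smad5 read 526, 599 and 484 with AMH 200 ng/mL, against 309, 469 and 386 with AMH 50 ng/mL, without overlap (difference 0.46, SE 0.12, adjusted p = 0.401). Its 3 probe sets gave 0.10 to 0.46. Smad1 differed by -0.07 (SE 0.10) by its brightest probe set, while its other probe sets gave -0.0003 and 0.36. The probe set at 0.36 was higher in every pool, by 0.50, 0.28 and 0.31. The shared partner Smad4 differed by 0.08 (SE 0.11), which became -0.02 with median centring, and its other probe sets gave 0.10 and 0.19. Of the target genes of SMAD1/5/9, 10 of 17 were higher and 7 lower. None had an unadjusted p under 0.05 in the higher direction and 2 had one in the lower, against 5.55% and 3.45% of all genes, and the median of 0.03 became -0.07 with median centring. Id1, Id2 and Id3, inhibitors of bHLH transcription factors and direct targets of this pathway, differed by 0.11 (95% interval -0.15 to 0.38), 0.30 (-0.07 to 0.66) and 0.13 (-0.21 to 0.46). A second probe set of Id2 gave 0.40, with pool differences of 0.90, 0.17 and 0.13. The inhibitory SMADs differed by 0.37 (-0.04 to 0.78) for Smad6, which was higher in 3 of 3 pools, and by 0.03 (-0.37 to 0.43) for Smad7, which became -0.07 with median centring. Bmper, which binds BMPs outside the cell, read 591, 552 and 585 with AMH 200 ng/mL and 861, 687 and 699.6 with AMH 50 ng/mL, a difference of -0.36 (SE 0.15) without overlap.

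The list of inhibin, activin and follistatin genes was split evenly, with 6 of 12 higher and 6 lower and a median of 0.00. Genes that FSH induces were higher in 5 of 13 and lower in 8, with a median of -0.08 that became 0.05 without pool 1. Genes that LH induces and that expand the cumulus leaned lower with AMH 200 ng/mL: 12 of 15 were lower, 5 with an unadjusted p under 0.05, against 48.3% and 3.45% of all genes. Their median was -0.27 and the pool medians were -0.29, -0.53 and -0.10. This list includes Star, which is also a leading lower gene and a member of the steroidogenesis and theca lists. Adcyap1, the neuropeptide PACAP that LH induces in granulosa cells, read 61.4, 17 and 22.9 with AMH 200 ng/mL and 78.4, 74.7 and 130.3 with AMH 50 ng/mL (difference -1.22, SE 0.31). The EGF-like factor genes Ereg and Btc, which relay the LH signal to the cumulus, differed by -0.75 (SE 0.24) and -0.56 (SE 0.20). Ereg was higher with AMH 200 ng/mL in pool 3, by 0.11, while Btc was lower in every pool.

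Steroid and cholesterol genes were lower with AMH 200 ng/mL in nearly every member measured. Of 12 steroidogenesis genes, 11 were lower, 8 of them in 3 of 3 pools and 4 with an unadjusted p under 0.05, against 48.3%, 12.2% and 3.45% of all genes. Their median was -0.25, with pool medians of -0.49, -0.28 and -0.06. Beside Star, Akr1c18, which inactivates progesterone, read 10.7, 29.4 and 9.89 with AMH 200 ng/mL, against 39.5, 121 and 41.1 with AMH 50 ng/mL. These signals lie near the array medians, and the difference of -1.26 (SE 0.26) depends on the number added. Cyp17a1, with which theca cells form androgens, read 35.0, 30.9 and 33.6 with AMH 200 ng/mL and 105, 50.7 and 114 with AMH 50 ng/mL, while the vehicle arrays spread over 168, 29.8 and 421 (difference between doses -1.05, SE 0.45). The exception was Hsd17b1, described above. Genes of cholesterol synthesis and its control were lower in 20 of 20 members measured, in 3 of 3 pools for 13 and with an unadjusted p under 0.05 for 6, against the same shares of all genes. The median was -0.21 and the pool medians were -0.27, -0.27 and -0.16.

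Mvk, the mevalonate kinase gene, read 266, 262 and 322 with AMH 200 ng/mL, against 397, 426 and 387 with AMH 50 ng/mL, a difference of -0.49 (SE 0.11, adjusted p = 0.341). The doses did not overlap for this gene, for 3 of the 20 list members in all, and for 4.6% of all genes in this direction. Nsdhl, of the late sterol steps, differed by -0.33 (SE 0.10), and the mevalonate pathway genes Mvd and Idi1 by -0.36 (SE 0.11) and -0.35 (SE 0.12), each lower in every pool. These shifts are small beside those of Ndrg1 or Zp3, and their size varied between pools, as for Mvk at -0.55, -0.67 and -0.25. A second probe set of Mvk gave -0.28, with 0.02 in pool 3. The sterol response element TCACNCCAC occurred before the start site of 1 of 16 members with a promoter sequence (6.25%), against 1.22% of genes.

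Hypoxia and glycolysis genes leaned the same way, with 29 of 31 lower, 13 of them in 3 of 3 pools and 6 with an unadjusted p under 0.05, against 48.3%, 12.2% and 3.45% of all genes. The median was -0.21 and the pool medians were -0.18, -0.31 and -0.03. Beside Ndrg1 and Egln3, Ero1a, an oxidase for protein folding that low oxygen induces, read 424, 374 and 510.3 with AMH 200 ng/mL and 537, 741 and 626 with AMH 50 ng/mL, without overlap (difference -0.52, SE 0.15). The angiogenic factor gene Vegfa read 568, 519 and 447 with AMH 200 ng/mL and 641, 932 and 604 with AMH 50 ng/mL (-0.47, SE 0.16), and the lactate transporter gene Slc16a3 differed by -0.42 (SE 0.13). In each of these 3 genes the gap was widest in pool 2. Promoters of Egln3 (chr12:54203875-54204124, minus strand) and Ero1a (chr14:45318573-45318822, minus strand) are shown in the sense of the gene, 250 bases before the start site, since both genes were lower in each pool and HIF binds the core motif ACGTG or GCGTG. Capitals mark that core on either strand.
Egln3: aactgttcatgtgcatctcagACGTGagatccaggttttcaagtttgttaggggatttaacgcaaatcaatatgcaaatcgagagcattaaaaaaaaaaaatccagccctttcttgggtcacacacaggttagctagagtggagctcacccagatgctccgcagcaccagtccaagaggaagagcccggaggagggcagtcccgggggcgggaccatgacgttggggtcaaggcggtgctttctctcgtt
Ero1a: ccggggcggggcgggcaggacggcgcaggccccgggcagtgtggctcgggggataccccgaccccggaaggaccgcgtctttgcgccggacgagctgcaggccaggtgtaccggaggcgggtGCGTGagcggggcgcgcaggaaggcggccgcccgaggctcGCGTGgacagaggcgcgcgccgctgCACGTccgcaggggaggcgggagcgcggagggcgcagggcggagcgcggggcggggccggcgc
Egln3 held 1 match, 224 bases before the start, and Ero1a held 3, the last of them ACGTG on the opposite strand. A match was present in 28 of 29 members with a promoter sequence (96.6%), against 41.5% of genes. The members' windows were also richer in G and C, at a median of 62.8% against 52.4%, and ACGTG overlaps CANNTG where the letters read CACGTG, as in the Zp3 promoter.

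Markers of theca and interstitial cells were lower with AMH 200 ng/mL in 16 of 16 members by the mean, but 4 were lower in 3 of 3 pools, against 12.2% of all genes, and pool 2 went the other way. The list median was -0.42 with pool medians of -0.98, 0.09 and -0.44, and -0.11 without pool 1. Extracellular matrix genes behaved alike, but Col1a1, Col1a2, Col3a1, Dcn and Lum belong to both lists and enter them with the same values. Of 27 matrix genes, 25 were lower, with a median of -0.33, pool medians of -0.64, 0.22 and -0.36, and -0.08 without pool 1. Lum, a matrix proteoglycan gene in both lists, read 101, 96.1 and 105 with AMH 200 ng/mL and 337, 133 and 323 with AMH 50 ng/mL (difference -1.16, SE 0.36). The smooth muscle actin gene Acta2 had pool differences of -2.01, 0.08 and -0.48. Fn1, the fibronectin gene, and Timp1, an inhibitor of metalloproteinases, differed by -0.33 (SE 0.13) and -0.29 (SE 0.12), each lower in every pool. Summed theca signal was 14683, 15725 and 17004 with AMH 200 ng/mL, against 25479, 15140 and 20245 with AMH 50 ng/mL. The steroidogenesis list shares Star and Cyp17a1 with the theca list. Its pool medians were -0.49, -0.28 and -0.06, while the theca sum with AMH 200 ng/mL was lower in pools 1 and 3 and slightly higher in pool 2. How far cell content enters these medians was not tested.

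Mitosis genes were higher in 22 of 28 members with a median of 0.17, but pool 1 went the other way (pool medians -0.35, 0.45 and 0.48), and the median became -0.02 without pool 2. The condensin gene Ncapg read 96.8, 208 and 153 with AMH 200 ng/mL and 49.1, 127 and 91.5 with AMH 50 ng/mL (difference 0.70, SE 0.14). The kinetochore gene Cenpf and the spindle checkpoint gene Bub1b differed by 0.67 (SE 0.16) and 0.57 (SE 0.14). A second probe set of Cenpf gave 0.09, with pool differences of -0.59, 0.28 and 0.58, and those of Ncapg and Bub1b gave 0.65 and 0.52. By the brightest probe sets, 3 of 28 had an unadjusted limma p under 0.05 in the higher direction, against 5.55% of all genes. By the same probe sets these 3 were higher in every pool, as were 15.3% of all genes. DNA replication genes were higher in 17 of 27, with a median of 0.05 that became -0.05 with median centring. Leukocyte markers were lower in 9 of 14 (median -0.07), with H2-Ab1, an antigen-presenting class II gene, at -0.92, -1.97 and 0.02 in the 3 pools. Endothelial markers had a median of -0.05 from pool medians of 0.33, 0.37 and -0.86, and the VEGF receptor gene Kdr followed them at 1.13, 1.12 and -0.20. Surface epithelium markers had a median of 0.04, which became -0.06 with median centring.

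Immediate early genes were lower in 15 of 21 with a median of -0.09, and 3 of them had an unadjusted p under 0.05 in that direction, against 48.3% and 3.45% of all genes. Myc, the growth-promoting transcription factor gene, read 433, 469 and 439 with AMH 200 ng/mL, against 578, 689.7 and 599.8 with AMH 50 ng/mL and 482, 483 and 479.6 in vehicle. The doses did not overlap, and the difference was -0.46 (SE 0.10, adjusted p = 0.281). Fosl1, an AP-1 subunit gene, differed by -0.77 (SE 0.19) and the zinc finger gene Klf6 by -0.35 (SE 0.11), both lower in every pool. Among p53 and apoptosis genes 10 of 15 were lower (median -0.13), with the cell cycle inhibitor gene Cdkn1a at -0.40 (SE 0.14). Interferon response genes were lower in 11 of 15 (median -0.18, and -0.00 without pool 2), with Oasl2, an antiviral gene, at -0.31 (SE 0.11). Heat shock and ER stress genes were 11 higher and 10 lower, with a median of 0.00 that became -0.10 with median centring.

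**Figure D4:**
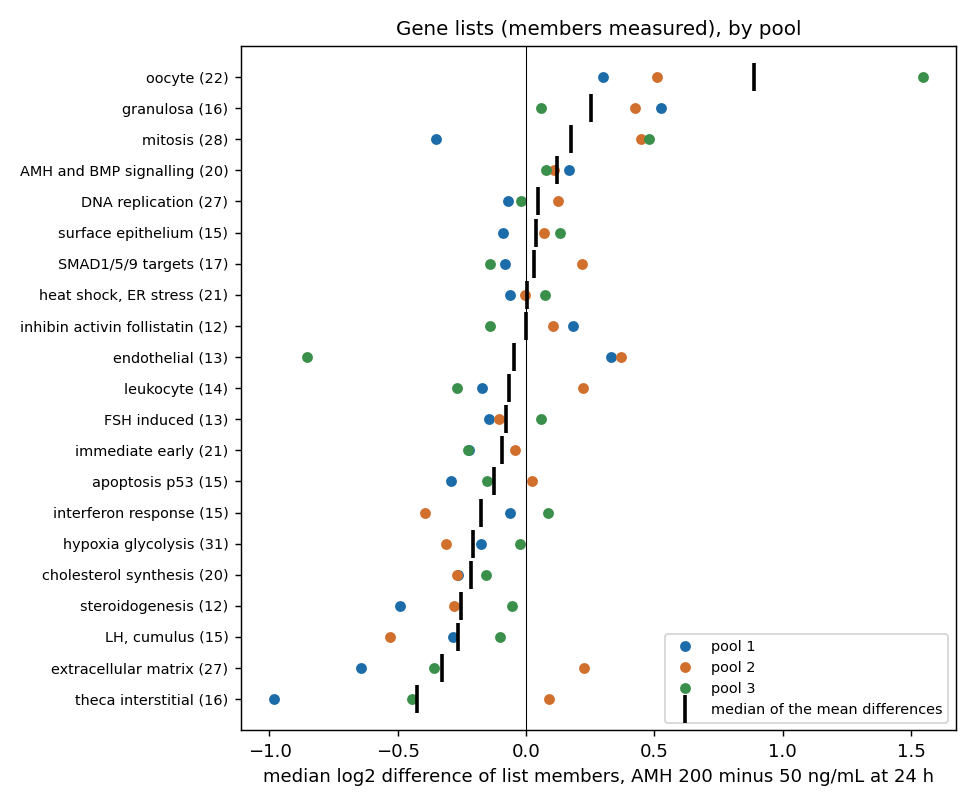
Median log2 difference (AMH 200 minus 50 ng/mL at 24 h) of the measured members of each gene list, in each pool (points) and for the mean of the pools (bars), with the number of members in brackets. Oocyte, granulosa and AMH and BMP signalling lists lie above 0 in all pools, cholesterol synthesis, steroidogenesis, hypoxia and LH lists below 0 in all pools, and theca, matrix and endothelial lists change sign between pools.

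The same dose difference at 12 h came from other mice, and pools 1 and 2 of that time could be used, since the AMH 50 ng/mL array of the third pool stands apart from all others. Of the 10 leading genes that were higher at 24 h, 6 (60%) were higher in both 12 h pools, as were 30.8% of the 3937 probe sets higher in 3 of 3 pools at 24 h. Cdo1 differed by 1.72 and 0.52 at 12 h, Bmp15 by 1.77 and 0.18, C86187 by 1.09 and 0.65, and Tfdp2 by 0.56 and 0.55. The others were 4933427D06Rik, at 1.54 and 0.52, and Kbtbd8, at 1.00 and 0.24. All of them except Tfdp2 are the genes that, like the oocyte sum, were brightest in pool 2 at 24 h. The oocyte list had medians of 1.42 and 0.50, with Zp3 at 1.44 and 0.59 and Gdf9 at 1.44 and 0.49. Of the 10 leading genes that were lower at 24 h, 2 (20%) were lower in both 12 h pools, against 26.0% of the 2572 probe sets lower in 3 of 3 pools. Those were Cited1, at -1.35 and -0.26, and Cldn3, at -0.28 and -1.30. Ndrg1 differed by -1.29 and 0.34, Egln3 by -2.25 and 1.39, Star by -0.45 and 1.56, and Tgfbi by 0.69 and 0.67.

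Medians of other lists in the 2 pools of 12 h were -0.37 and -0.17 for granulosa markers, 0.39 and 0.89 for theca markers, -0.12 and 0.30 for steroidogenesis, 0.04 and -0.12 for cholesterol synthesis, and -0.69 and 0.20 for hypoxia and glycolysis. Inhba, higher with AMH 200 ng/mL in every pool at 24 h, differed by -1.35 and -0.37 at 12 h. The difference between the times was tested over 17 arrays, in which limma gave no call among 22518 probe sets (0, or 0%). The smallest adjusted p was 0.992, and 803 (3.57%) had an unadjusted p under 0.05. In this fit the third 12 h pool had no AMH 50 ng/mL array. Its AMH 200 ng/mL array also correlated less with the other arrays, at a median of 0.856. With the same 17 arrays, the dose difference at 24 h itself had 936 probe sets at an unadjusted p under 0.05, against 1990 with the 9 arrays. The absence of calls therefore does not show that the times were alike.

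**Figure D5:**
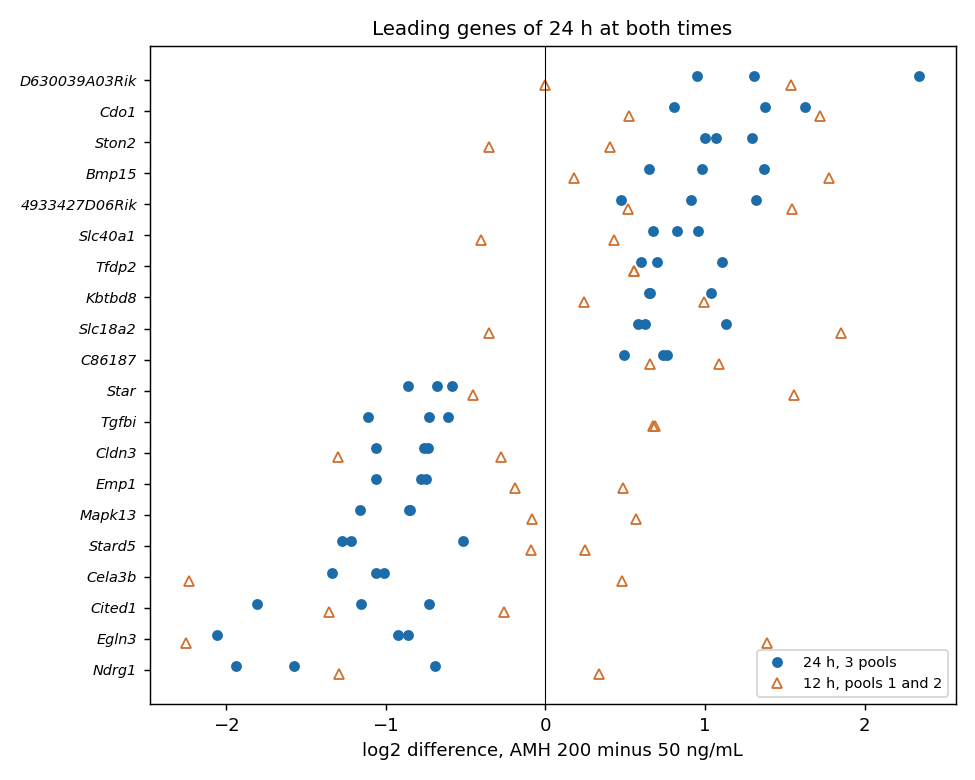
Log2 difference (AMH 200 minus 50 ng/mL, x axis) of the 20 leading genes in each of 3 pools at 24 h (filled circles) and in 2 pools at 12 h (open triangles). The genes were chosen for 1 sign in all 24 h pools, and the 12 h values, from other mice, lie on both sides of 0 for most of the lower group.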

How the data were processed

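RNA of 18 follicle cultures was amplified and hybridised to Affymetrix mouse arrays. The deposited table holds the signal intensity of 45101 probe sets on a linear scale, computed with MAS5 per the submitters' processing notes (version not given in the sources used here), and the 2% trimmed mean of each array is 150. Values were used as deposited. The 64 control probe sets were set aside, 16 was added, and log2 taken. Tested were the 22518 probe sets whose mean over the 9 arrays of 24 h lay above the 50th percentile. GEO's platform annotation gave 34945 probe sets 1 symbol, 932 several and 9160 none.

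The test was limma 3.58.1 (R 4.3.3; lmFit, eBayes with an intensity trend, two-sided) over the 9 arrays of 24 h with group and pool, which left 4 residual degrees of freedom, and Benjamini-Hochberg adjustment ran over all probe sets tested, with a threshold of 0.05. The pairing comes from the growth protocol, by which 1 pool of follicles was divided over the doses. Deviations from the group means correlated at 0.06, 0.13 and 0.21 between arrays of AMH 200 and 50 ng/mL with the same number. SE and 95% intervals are of this fit. P-values measure how far the differences between the groups varied from pool to pool (each of 7 mice). The block takes out differences in level between pools. The difference between times was fitted on 17 arrays with the 6 pools, without AMH 50 ng/mL at 12 h replicate 3, which stands apart.

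For the gene lists, the brightest tested probe set stood for each of 11170 genes. The named genes were the 10 higher and 10 lower with the smallest unadjusted p among probe sets with 1 symbol and the same sign in 3 of 3 pools, a fixed set of AMH, granulosa and oocyte genes, and, from each list, the members with the smallest unadjusted p (at most 4). The comparison, the lists and their members were chosen with earlier results of these data known. Promoters are from RefSeq tables of GRCm38.p6, and motifs were searched on both strands. On simulated data for this comparison, with 22518 probe sets, limma called 58% of 100 probe sets shifted by 1 (log2) and 94% of 100 shifted by 2, with 7 false calls. Both sets were shifted in the same run, and the noise was drawn independently for each probe set and array. Shifts that many genes of an array share were therefore not simulated, and these shares are not the power of the real comparison. The alternatives changed the block, the arrays fitted, the number added (1 or 50), the normalization (quantile, median centring), the filter (none, 75th percentile), the trend, array weights, the probe sets per gene and the pools kept. Figures were drawn with matplotlib 3.10.9. The 12 h AMH samples are described as 24 h in 1 label and as 12 h in title and source, and 12 h was used. Some genes are not reported here.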

Additional observations from a re-analysis of the deposited data

Results flagged for a closer look

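Granulosa cell markers differed in sign between the times. With AMH 200 against 50 ng/mL at 24 h the list had a median log2 difference of 0.25, and the medians of the 3 pools were 0.53, 0.42 and 0.06. At 12 h the pool medians were -0.37, -0.17 and -2.18, all below 0, where the last comes from the pool that holds the array that stands apart. The difference between the times was not tested for this list, and over single probe sets limma called 0 for the difference between the times (803 at an unadjusted p under 0.05, over 17 arrays without the one that stands apart).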

How the results depend on the processing

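With the deposited values and the pool as a block, 0 probe sets were called. No call was made either with no replicate block (1213 at an unadjusted p under 0.05), with the 6 arrays alone, with 17 or 18 arrays, with 1 or 50 added, with quantile normalization, without the intensity trend, or with either other filter. Median centring called 24 (5 higher and 19 lower) and moved the median difference over all probe sets to -0.08, against 0.02 with the deposited values. Array weights called 336, though the weight of the AMH 50 ng/mL array of pool 3 was 21.6 against 0.21 to 2.68 on the others and the weights did not fully converge. Leaving out 1 pool gave 0 to 32 calls, with 32 without pool 2, a single one (Ndrg1) without pool 3 and 0 without pool 1. The call count for the time difference was 0 under each of its 7 alternatives. The block changed no call.

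The AMH and BMP signalling median of 0.12 became 0.17 with quantile normalization, 0.020 with median centring and 0.059 with array weights, and lay at 0.088 to 0.17 without 1 pool. Median centring gave -0.31 for cholesterol synthesis and -0.099 for heat shock and ER stress genes. Without 1 pool, FSH-induced genes ranged between -0.17 and 0.050, and surface epithelium markers between 0.041 and 0.16. Single genes that changed sign were Smad4 (-0.017) and Smad7 (-0.070) with median centring, and Smad7 (-0.011), Fst (-0.063) and Kitl (-0.020) with array weights. Without 1 pool, differences ranged between -0.025 and 0.30 for Id3, -0.088 and 0.13 for Smad7, -0.23 and 0.050 for Inha, -0.43 and 0.35 for Fshr, and -0.067 and 0.40 for Kitl. The other genes named in the report kept their direction under each alternative that tested them.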

Other observations

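Some genes outside the lists stood out and were picked after their values were seen. Foxq1, a forkhead transcription factor gene, read 57.5, 102 and 93.2 with AMH 200 ng/mL, against 12.0, 29.6 and 24.6 with AMH 50 ng/mL. Its 2 probe sets differed by 1.40 (SE 0.27) and 1.59 (SE 0.35), and the doses did not overlap. The chemokine gene Cxcl1 differed by 0.91 to 1.21 over 3 probe sets, each without overlap, with 297, 290.4 and 555 with AMH 200 ng/mL and 149.7, 100.4 and 215 with AMH 50 ng/mL by the probe set with the largest difference. The oocyte gene Khdc1b differed by 0.93 (SE 0.17) and Accsl by 0.85 (SE 0.16). Sprr1a, a cornified envelope protein gene of epithelia, and Spink4, a protease inhibitor gene, were lower with AMH 200 ng/mL in every pool, with differences of -1.04 (SE 0.24) and -0.89 (SE 0.18). With the deposited values, none of these 6 genes passed with limma, with adjusted p-values between 0.201 and 0.336 at their best probe sets. Foxq1 and Sprr1a passed with median centring (adjusted p = 0.0163 for both), and Foxq1, Cxcl1 and Sprr1a passed without pool 2 (adjusted p = 0.0419). All 6 passed with array weights, a fit that called 336 probe sets and gave 1 array a weight of 21.6. Since the genes were picked from these same values, passing under an alternative is no separate support for them.

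Of 5390 genes with at least 2 tested probe sets, 124 had at least 2 with an unadjusted p under 0.05 that were higher with AMH 200 ng/mL in every pool, and 70 had at least 2 that were lower in every pool.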
